A study of Mus musculus with 26 samples.

Results

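The mitochondrial ribosomal protein genes were taken as every probe of the array whose platform gene symbol begins with Mrpl or Mrps followed by a digit. The rule found 110 of 25697 probes, which stand for 76 of the 16593 genes named on the array, 47 with the Mrpl symbol of the large subunit and 29 with the Mrps symbol of the small subunit. A gene was tested where at least 1 of its probes was detected on both arrays of at least 1 line, which 71 of the 76 genes met (44 Mrpl and 27 Mrps genes). Of these 71 genes, 68 were detected on all 26 arrays. Mrpl19, Mrpl21, Mrpl32, Mrps14 and Mrps36 were not tested. Mrpl19 and Mrpl32 were detected on 1 array each, and Mrpl21, Mrps14 and Mrps36 on 0 of 26.

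Illumina BeadChip arrays were used to measure the total RNA of 13 mouse cell lines, with 2 technical arrays a line. The title of the series asks whether cells reprogrammed with transcription factors keep a trace of the cell they came from. The lines were iPSC (induced pluripotent stem cells made from germline stem cells, 4 lines), gPSC (pluripotent stem cells derived from germline cells, 4 lines), GSC (germline stem cells, 2 lines), Fib-iPSC (induced pluripotent stem cells made from fibroblasts, 1 line), ESC (embryonic stem cells, 1 line) and fibroblasts (1 line). All 13 lines carry the OG2 background, a mouse strain with a fluorescent reporter of the pluripotency gene Pou5f1. The labels give no culture conditions, passage, reprogramming factors or age. The ESC, Fib-iPSC and fibroblast groups are 1 line each, so tests against ESC and fibroblasts assume that the lone line varies as the lines of the other groups do. The p-values measure the spread between the lines of a group, and nothing says whether these came from separate animals. In cultures measured in bulk, fewer cells of a type and less RNA per cell cannot be told apart.

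The mitochondrial ribosome translates the few proteins that mitochondrial DNA encodes, which are core subunits of the respiratory chain and of ATP synthase. Its ribosomal RNAs come from mitochondrial DNA, whereas all of its proteins are encoded in the nucleus, made in the cytosol and imported. Proteins with low numbers take them from their bacterial counterparts, and most of those numbered beyond the bacterial set were added in the mitochondrial lineage. Pluripotent cells of early embryo type are known for small mitochondria with few cristae and for a strong use of glycolysis.

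Markers of the labelled cell types were read before the members. The mean of 7 pluripotency markers lay between 9.71 and 11.32 on the log2 scale in the 10 pluripotent lines. It was 6.65 and 6.32 in the GSC lines and 4.52 in fibroblasts. The marker Tdgf1 was low in gPSC 3 (4.28), gPSC 4 (4.39) and Fib-iPSC (4.32), near fibroblasts (4.35). It was at 9.21 to 10.57 in the other pluripotent lines, and a probe of it was detected on every array of all 10. The mean of 6 germline markers was 6.53 in iPSC 3, 6.19 in gPSC 3 and at most 5.75 in the other pluripotent lines, against 8.40 and 8.55 in the GSC lines. The mean of 7 fibroblast markers was 9.10 in gPSC 1, against 4.91 to 7.57 in the other pluripotent lines and 9.47 in fibroblasts. These markers disagreed: Dcn and Lum were at 11.68 and 11.21 in gPSC 1, above the 7.30 and 5.21 of fibroblasts, while Col1a1 (9.09 against 12.23), Col1a2 (6.27 against 9.60), Col3a1 (9.59 against 10.37), Thy1 (9.61 against 11.80) and Twist2 (6.28 against 9.77) were below fibroblasts. Dcn and Lum were highest in gPSC 1, but they were above fibroblasts in most other lines too. Lum was above fibroblasts in every line but iPSC 3 (4.88), and Dcn in every line but iPSC 1 (7.04) and iPSC 3 (5.50). Median intensity per array ran from 89.17 to 143.2, with 134.4 and 143.2 on the fibroblast arrays, and 12097 to 13808 probes per array were detected. The first array of each GSC, gPSC, ESC and Fib-iPSC line was brighter (median 100.1 to 102.9) than the iPSC arrays (89.2 to 93.2) and than the second array of those lines (89.5 to 94.0). Both arrays of a line correlated at 0.994 to 0.996 over all probes.

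The sequences upstream of 7 members whose differences carry the results are given here from RefSeq (mouse build GRCm38.p6), whose promoter table held 67 of the 76 members. Capitals mark letters of 4 motifs on either strand: GCATGCGC of NRF1 and CCGGAAG of the ETS family factor GABPA, both activators of nuclear genes for mitochondria, AAGATGG of YY1, and the CCAAT box. The first 4 stretches are the 100 bases before the start of Mrpl17, which was higher in pluripotent lines than in GSC, and of Mrps16, Mrps22 and Mrpl3, which were lower. Mrpl17 lies on chr7:105811088-105811187 (minus strand), Mrps16 on chr14:20393491-20393590 (minus), Mrps22 on chr9:98601680-98601779 (minus) and Mrpl3 on chr9:105053168-105053267 (plus).
Mrpl17: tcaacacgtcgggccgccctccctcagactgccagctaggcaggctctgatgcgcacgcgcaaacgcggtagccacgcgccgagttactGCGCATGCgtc
Mrps16: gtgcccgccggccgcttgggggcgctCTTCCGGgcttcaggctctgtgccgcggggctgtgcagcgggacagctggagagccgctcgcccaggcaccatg
Mrps22: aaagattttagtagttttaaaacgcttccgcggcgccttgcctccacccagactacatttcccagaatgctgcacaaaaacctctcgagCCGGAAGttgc
Mrpl3: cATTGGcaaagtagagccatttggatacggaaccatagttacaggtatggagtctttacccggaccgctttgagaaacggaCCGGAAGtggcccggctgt

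In the printed stretches, Mrpl17 carries NRF1 letters that begin 11 bases before the start. Mrps16, Mrps22 and Mrpl3 carry ETS letters that begin 74, 11 and 19 bases before theirs. The longer promoter window, described below, holds the ETS letters for Mrpl17 too, outside its printed bases. The presence of ETS letters thus does not set Mrpl17 apart from these lower genes. The other 3 stretches lie between the starts of genes that are read in opposite directions. They belong to 3 of the 15 such pairs in which both genes were tested. In each of these 3 pairs both genes differed in the same direction in iPSC against GSC, as given below. The pair that differed in opposite directions, Mrpl50 with Zfp189, is not shown. Printed are Mrps11 with Mrpl46 on chr7:78783089-78783130 (plus, 42 bases), Mrps12 with Sars2 on chr7:28741822-28741968 (minus, 147 bases) and Mrpl49 with Fau on chr19:6057756-6057947 (minus, 192 bases). Sars2 is the mitochondrial seryl-tRNA synthetase, and Fau encodes a cytosolic ribosomal protein.
Mrps11 to Mrpl46: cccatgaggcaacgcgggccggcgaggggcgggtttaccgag
Mrps12 to Sars2: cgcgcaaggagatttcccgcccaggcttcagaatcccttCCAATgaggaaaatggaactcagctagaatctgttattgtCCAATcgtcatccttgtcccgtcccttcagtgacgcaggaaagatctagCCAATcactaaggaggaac
Mrpl49 to Fau: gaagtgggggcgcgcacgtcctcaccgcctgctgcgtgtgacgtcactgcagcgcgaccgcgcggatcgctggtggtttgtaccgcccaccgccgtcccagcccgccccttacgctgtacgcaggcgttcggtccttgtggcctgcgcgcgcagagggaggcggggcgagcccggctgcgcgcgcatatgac

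The stretch before Mrps12 holds the CCAAT letters 3 times, and the other 2 shared stretches hold none of the 4 motifs. Mrpl13, Mrpl15, Mrpl19, Mrpl38, Mrpl4, Mrpl54, Mrps28, Mrps34 and Mrps35 had no entry in the table.

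In iPSC against GSC, 17 of the 71 members were higher (background: 19.5% of the 10660 genes tested) and 14 were lower (24.6%) by limma's moderated test at a Benjamini-Hochberg adjusted p under 0.05, which is what called means here. These 31 members are 43.7% of the members, against 44.2% of all genes tested, so the share that differed was that of the transcriptome. With the second array of each line alone, 8 members were higher and 14 lower. Of all 10660 genes, 4365 were called with that array alone, against 4708 with both arrays. The part of the array brightness in this was not tested. The median log2 difference was 0.01 over the members and -0.02 over all genes. At a difference of at least 2-fold, 4 members were higher and 5 were lower, where 22.8% of all genes passed in either direction. Of the 31 calls, 11 held whichever of the 10 iPSC, gPSC and GSC lines was left out.

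Levels below are log2 normalized intensities, each the mean of a line's 2 arrays, and ± gives the SE of a log2 difference. Mrps28, a small-subunit protein, had levels of 9.31, 9.43, 8.98 and 9.25 in iPSC lines 1 to 4, 9.33, 9.54, 9.43 and 9.47 in gPSC lines 1 to 4, and 7.64 and 7.49 in the GSC lines. It stood at 9.44 in Fib-iPSC, 9.20 in ESC and 8.86 in fibroblasts. Every pluripotent line was thus above both GSC lines by more than 1 log2 unit, and the groups did not overlap. Here and below, members were named by the size of their called differences. Groups that do not overlap restate that choice and are no further support. No share of all genes without overlap was worked out. The fitted difference was 1.68 ± 0.14 for iPSC over GSC (95% interval 1.37 to 1.98; adjusted p = 1.72e-05) and 1.88 ± 0.14 for gPSC over GSC (3.67-fold; adjusted p = 9.35e-06). Mrps28 had the largest difference of any member in both comparisons.

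Mrpl49, a large-subunit protein without a bacterial counterpart, had levels of 9.20, 9.23, 9.31 and 9.17 in iPSC, 9.20, 9.26, 9.03 and 9.18 in gPSC, and 7.64 and 7.55 in GSC. It reached 9.23 in Fib-iPSC, 9.17 in ESC and 7.65 in fibroblasts. By its brightest probe both kinds of source cell were thus low and all 10 pluripotent lines were high. The difference was 1.64 ± 0.10 for iPSC over GSC (adjusted p = 3.73e-06) and 1.57 ± 0.10 for gPSC over GSC (adjusted p = 4.99e-06). These values come from the brightest of 4 probes. A second probe was called in the same direction at 0.97, while the remaining pair gave -0.13 and -0.11 in iPSC over GSC and were not called.

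Mrpl17, whose bacterial counterpart is a large-subunit protein of the same number, had levels of 11.67, 11.87, 11.80 and 11.59 in iPSC, 11.67, 11.67, 11.48 and 11.77 in gPSC, and 10.72 and 10.40 in GSC. Fib-iPSC stood at 11.72, ESC at 11.62 and fibroblasts at 11.22. Its lowest pluripotent line lay above its highest GSC line. It was 2.26-fold higher in iPSC (1.17 ± 0.14, adjusted p = 0.000135) and 2.12-fold higher in gPSC (1.09 ± 0.14, adjusted p = 0.000221).

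Mrps33, a small-subunit protein of the mitochondrial lineage, had levels of 11.04 to 11.13 in the 4 iPSC lines, 10.87 to 11.10 in the 4 gPSC lines, and 10.10 and 10.04 in GSC. Its 2 probes gave the same difference, 1.02 each, in iPSC over GSC (brighter probe: SE 0.10, adjusted p = 5.25e-05). The gPSC lines exceeded GSC by 0.91 ± 0.10 (adjusted p = 0.000106). All 8 of these pluripotent lines stood above both GSC lines.

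Mrpl11, the protein of the stalk base, had levels of 8.84, 9.03, 8.43 and 8.60 in iPSC, 9.05, 8.80, 8.61 and 9.07 in gPSC, and 7.98 and 7.77 in GSC. Mrpl50, a mitochondria-specific protein, had levels of 9.81, 9.92, 9.44 and 9.78 in iPSC, 9.94, 9.98, 9.67 and 10.03 in gPSC, and 8.91 in both GSC lines. The small-subunit protein Mrps15 was the member with the fifth largest rise in gPSC, at 7.88, 8.01, 7.75 and 8.20, with 7.73, 8.15, 7.31 and 7.65 in iPSC, against 6.94 and 6.99 in GSC. In these 3 genes, named for their differences against GSC, no pluripotent line reached down to the GSC lines. Line iPSC 3 was the lowest iPSC line in each. Mrpl11 was higher by 0.85 ± 0.19 in iPSC (adjusted p = 0.00579) and by 1.01 ± 0.19 in gPSC (adjusted p = 0.00244). Mrpl50 was higher by 0.83 ± 0.15 in iPSC (adjusted p = 0.00212) and by 0.99 ± 0.15 in gPSC (adjusted p = 0.000783), and Mrps15 by 1.00 ± 0.21 in gPSC (adjusted p = 0.00445). Mrpl11 lost its call in iPSC when GSC 2 was left out (adjusted p = 0.0622).

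**Figure D1:**
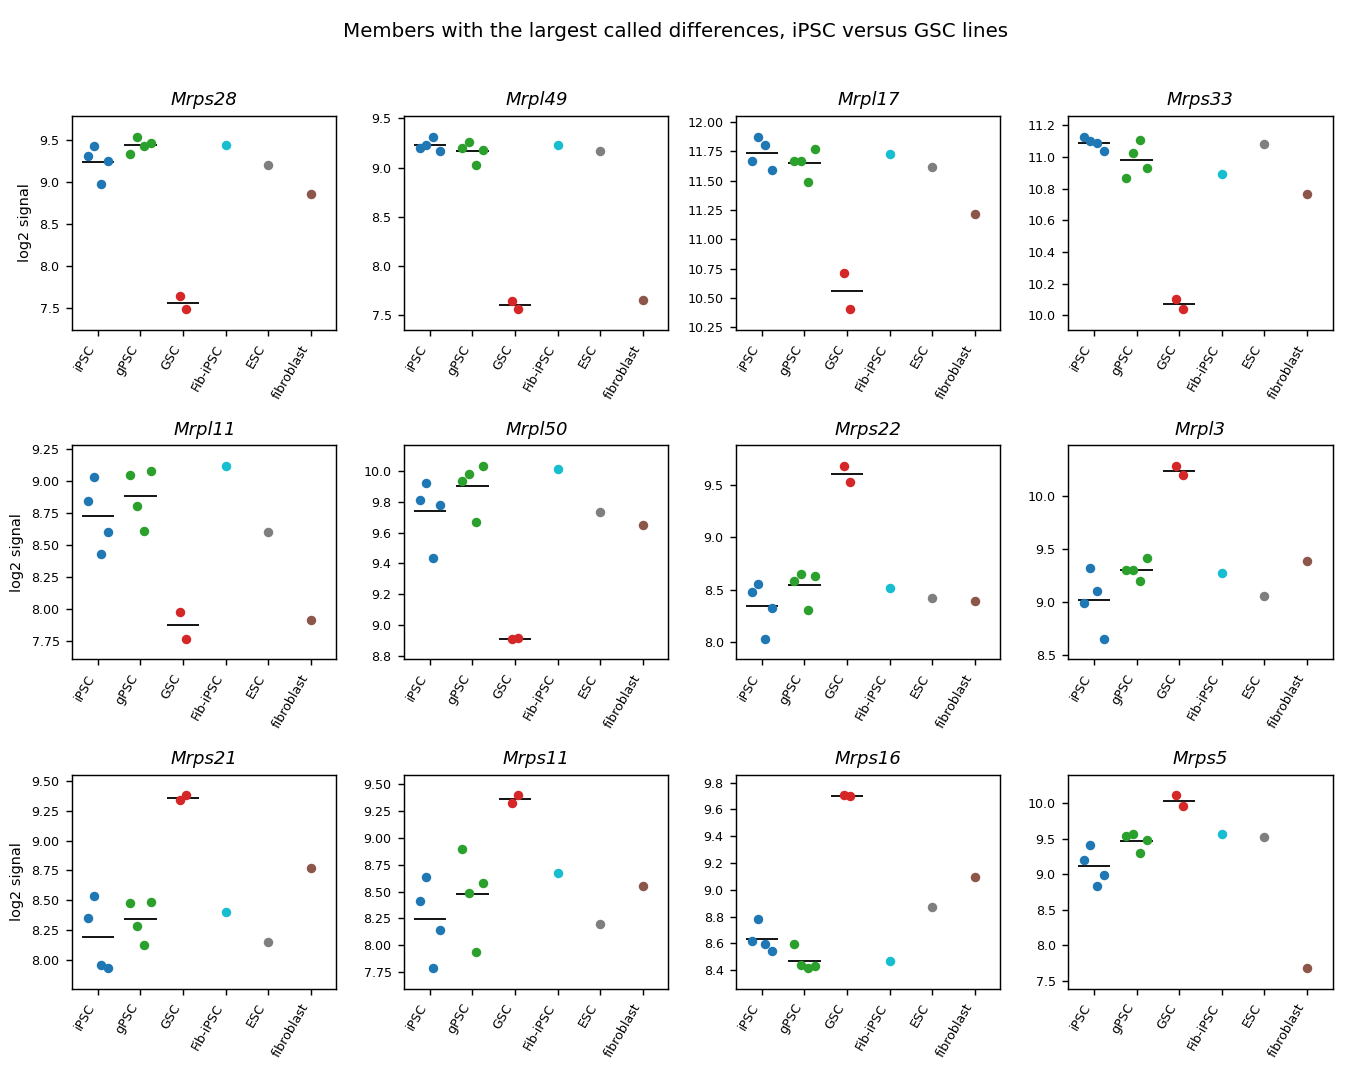
Log2 level (y axis) of members with the largest differences against GSC in each of the 13 lines (points, grouped as iPSC, gPSC, GSC, Fib-iPSC, ESC and fibroblast; each point is the mean of 2 arrays, and bars are group means). Mrps28 lies between 8.98 and 9.54 in the iPSC and gPSC lines and at 7.64 and 7.49 in GSC, while Mrps22 lies between 8.04 and 8.65 in those lines and at 9.68 and 9.52 in GSC.

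Of the 6 largest falls in iPSC over GSC, 5 were of small-subunit genes. Mrps22, a mitochondria-specific protein, had levels of 8.48, 8.55, 8.04 and 8.33 in iPSC, 8.58, 8.65, 8.31 and 8.63 in gPSC, and 9.68 and 9.52 in GSC. Fib-iPSC stood at 8.52, ESC at 8.43 and fibroblasts at 8.39, so both GSC lines were above each of the other 11. The difference was -1.25 ± 0.16 for iPSC over GSC (2.38-fold lower, adjusted p = 0.000274) and -1.06 ± 0.16 for gPSC over GSC (2.08-fold lower, adjusted p = 0.000754).

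Mrps16, a protein of the small-subunit body, had levels of 8.62, 8.78, 8.59 and 8.55 in iPSC, 8.60, 8.44, 8.42 and 8.43 in gPSC, and 9.70 in both GSC lines. It stood at 8.47 in Fib-iPSC, 8.88 in ESC and 9.10 in fibroblasts. The pluripotent lines were all lowest, fibroblasts were in between and GSC were highest. Mrps16 differed by -1.07 ± 0.11 in iPSC (adjusted p = 5.6e-05) and by -1.23 ± 0.11 in gPSC (2.35-fold lower, adjusted p = 2.63e-05), and in gPSC it had the largest fall of any member.

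Mrpl3, which sits near the peptidyl transferase centre, had levels of 8.98, 9.32, 9.10 and 8.65 in iPSC, 9.30, 9.30, 9.19 and 9.41 in gPSC, and 10.28 and 10.20 in GSC. Mrps21 had levels of 8.35, 8.53, 7.96 and 7.93 in iPSC, 8.48, 8.28, 8.12 and 8.48 in gPSC, and 9.34 and 9.38 in GSC. Both genes were highest in the GSC lines among all 13 lines. Mrpl3 differed by -1.23 ± 0.17 in iPSC (adjusted p = 0.000359) and by -0.94 ± 0.17 in gPSC (adjusted p = 0.00172), and its other probe gave -1.11 in iPSC. Mrps21 differed by -1.17 ± 0.19 in iPSC (adjusted p = 0.000938) and by -1.02 ± 0.19 in gPSC (adjusted p = 0.00211).

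Mrps11 had levels of 8.41, 8.64, 7.79 and 8.14 in iPSC, 8.90, 8.49, 7.94 and 8.58 in gPSC, and 9.32 and 9.39 in GSC. The spread among pluripotent lines was wide, with iPSC 3 and gPSC 3 lowest in their groups, but the groups did not overlap. The difference was -1.11 ± 0.28 in iPSC (adjusted p = 0.00986) and -0.88 ± 0.28 in gPSC (adjusted p = 0.0303). Without GSC 1 the adjusted p was 0.0567 in iPSC and 0.119 in gPSC, and without GSC 2 it was 0.0689 and 0.147. Mrps5, with -0.92 ± 0.16 (adjusted p = 0.00159), completed the 6 largest falls in iPSC. Mrpl38, a mitochondria-specific protein of the central protuberance, was among the 6 largest in gPSC, with -0.90 ± 0.18 (adjusted p = 0.00299).

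**Figure D2:**
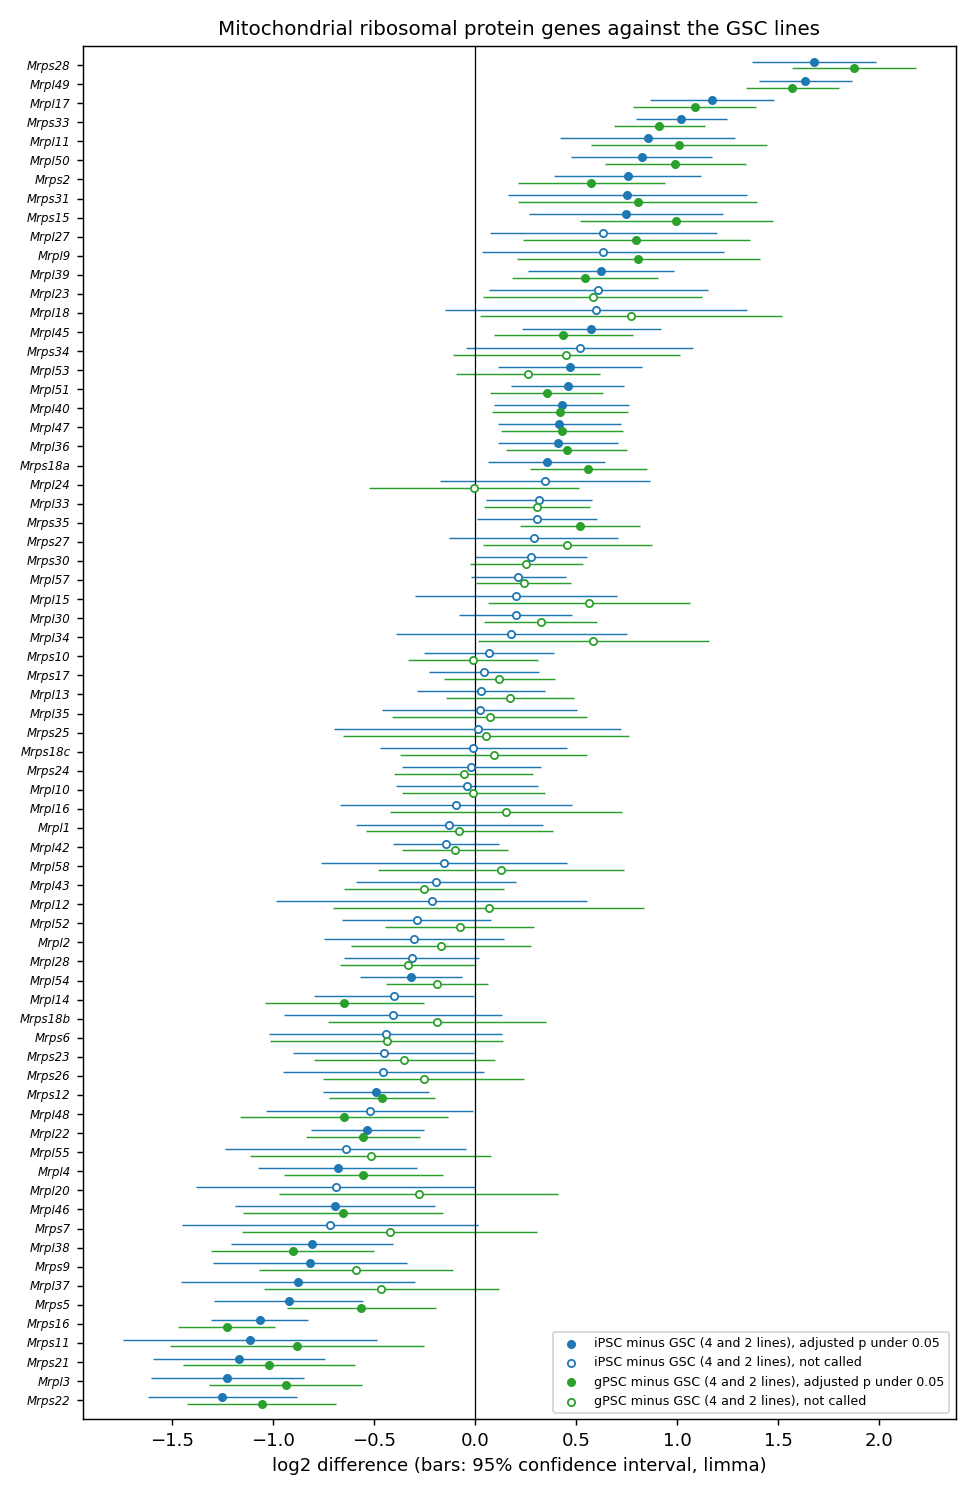
Log2 difference over GSC of each of the 71 members (points) in iPSC and in gPSC, with 95% intervals for the fit over 13 lines and filled points for members called. The members run from -1.25 to 1.68 in iPSC and from -1.23 to 1.88 in gPSC on both sides of 0, and both comparisons share the GSC lines.

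In gPSC against GSC, 19 members were higher (background 17.9%) and 13 were lower (24.4%), together 45.1% of the members against 42.4% of all genes. At 2-fold or more, 4 were higher and 3 were lower, where 21.6% of all genes passed. The iPSC and gPSC comparisons share their GSC lines, and the members' calls are set side by side only for that reason: 16 were higher in both, 11 were lower in both, 35 were called in neither, and 0 were called in opposite directions. Mrps18a, which despite its symbol sits in the large subunit, was higher in iPSC (0.36 ± 0.13, adjusted p = 0.0487) and in gPSC (0.56 ± 0.13, adjusted p = 0.0066). Its call in iPSC was lost when GSC 1, GSC 2 or any iPSC line was left out. Mrps18b and Mrps18c, its paralogs, were not called in either comparison. Mrps18c had a difference of -0.01 in iPSC and 0.09 in gPSC.

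By symbol, the large subunit had 11 genes higher and 7 lower of 44 in iPSC over GSC, and the small subunit 6 higher and 7 lower of 27. In gPSC over GSC the counts were 12 and 7 for the large and 7 and 6 for the small subunit. Of the 40 members with a bacterial number, 6 were higher and 9 lower in iPSC, while of the 31 members numbered beyond the bacterial set 11 were higher and 5 lower. In gPSC these counts were 8 and 9 of 40, and 11 and 4 of 31. The difference between these classes was not tested.

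Mrpl12, the stalk protein that also binds the mitochondrial RNA polymerase, had levels of 10.05, 10.33, 9.13 and 9.85 in iPSC, 10.38, 10.23, 9.48 and 10.40 in gPSC, and 10.10 and 10.01 in GSC. The GSC lines lay inside the range of the pluripotent lines, and Mrpl12 was not called in any comparison with GSC or ESC. Mrpl18, whose bacterial counterpart binds a small ribosomal RNA, had levels of 8.55, 8.69, 7.54 and 8.46 in iPSC and 8.74, 8.56, 7.91 and 8.72 in gPSC, against 7.70 and 7.72 in GSC. In this gene 3 of 4 iPSC lines and all gPSC lines were above GSC, iPSC 3 was below, and the difference of 0.60 in iPSC was not called (adjusted p = 0.178). Its dimmer probe was called in the same direction, at 0.52 ± 0.18 in iPSC (adjusted p = 0.0424) and 0.53 ± 0.18 in gPSC (adjusted p = 0.0416).

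The RNA of a member was read by several detected probes in 21 of the 71 genes. In iPSC over GSC the probes of 3 genes differed in sign, those of 8 differed in call, and 0 had probes called in opposite directions. Mrps25 was not called by its brightest probe (0.01), while its other detected probes gave 0.85 and 0.73 and were called. Mrps10 gave 0.07 and 0.21 from probes not called and -0.36 from a called one. Mrps7 gave -0.72 and 0.01, neither called. In gPSC over GSC 5 genes differed in sign and 8 in call, among them Mrpl13, Mrpl33, Mrpl47, Mrpl48 and Mrpl51. Against fibroblasts 8 genes differed in sign and 7 in call in iPSC, 9 and 7 in gPSC, and 3 and 9 in GSC. Mrpl10, which anchors the stalk, gave -0.11 from its brightest probe and 0.96 from the other, which was called, in iPSC over fibroblasts.

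Between iPSC and gPSC, the 2 routes to pluripotency from germline cells, 0 of the 71 members were called (background 0.00938%) and 1 passed an unadjusted p under 0.05. The differences ran from -0.41 to 0.35, with a median of -0.08 and 48 of 71 below 0, while the median of all genes was 0.01. Mrps5 had the lowest unadjusted p, with -0.36 ± 0.13 (95% interval -0.66 to -0.06; adjusted p = 0.627). The median SE of the members' differences was 0.14, which sets what 4 lines a group could detect.

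Against ESC, 0 members were called in iPSC (background 0.263%) and 0 in gPSC (0.281%) by limma, with 6 and 11 at an unadjusted p under 0.05. The differences ran from -0.74 to 1.04 in iPSC and from -0.78 to 1.09 in gPSC. Mrpl35 stood at 5.88, 6.04, 5.94 and 5.31 in iPSC and 5.61 to 6.07 in gPSC, with 5.80 and 5.74 in GSC, against 4.75 in ESC. Mrps24 stood at 11.22 to 11.41 in iPSC and 11.03 to 11.60 in gPSC, against 12.08 in ESC. The ESC line was the lowest of the 13 lines for Mrpl35 and the highest for Mrps24. Mrpl35 was detected on both ESC arrays, but its level there lay near their lowest detected signals (4.65 and 4.59). The adjusted p for Mrpl35 was 0.474 in iPSC and 0.396 in gPSC, the same values as for Mrps24.

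In GSC against ESC, 9 members were higher (background 16.4%) and 9 were lower (13.4%), together 25.4% of the members against 29.8% of all genes. At 2-fold or more, 4 were higher and 5 lower, where 20.5% of all genes passed. The members with the largest rises were Mrps21 (1.21 ± 0.27, adjusted p = 0.009), Mrpl3 (1.19 ± 0.24, adjusted p = 0.00548), Mrps22 (1.17 ± 0.23, adjusted p = 0.00511), Mrpl35 (1.02 ± 0.30, adjusted p = 0.0318), Mrps16 (0.83 ± 0.15, adjusted p = 0.00343) and Mrpl38 (0.78 ± 0.25, adjusted p = 0.0446). Those with the largest falls were Mrps28 (-1.64 ± 0.19, adjusted p = 0.000384), Mrpl49 (-1.58 ± 0.14, adjusted p = 9.6e-05), Mrpl17 (-1.05 ± 0.19, adjusted p = 0.0034), Mrps33 (-1.01 ± 0.14, adjusted p = 0.000933), Mrpl45 (2.01-fold lower, adjusted p = 0.00777) and Mrpl50 (-0.82 ± 0.22, adjusted p = 0.0198). Mrpl45 anchors the ribosome to the inner membrane. The Mrpl35 difference rests on an ESC level of 4.75, near the lowest detected signals of the ESC arrays (4.65 and 4.59). By numbering, 6 of the 40 bacterial-numbered members were higher and 1 lower, against 3 and 8 of the 31 numbered beyond the bacterial set. This difference between the classes was not tested. It rests on 1 ESC line and on the GSC lines of the earlier class counts, so it is no independent repeat of them. Only 9 of the 18 calls held whichever of the 10 iPSC, gPSC and GSC lines was left out. Leaving out a GSC line left 1 line in that group, and fewer of all genes tested were called then too. Mrpl35, Mrpl38 and Mrpl50 lost their calls without either GSC line, Mrpl35 also under quantile normalization (0.35), and Mrpl49 with the mean of its probes.

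Against fibroblasts, the somatic source of the Fib-iPSC line, 18 members were higher in iPSC (background 19.3%) and 6 were lower (20.6%). In gPSC, 18 were higher (17.3%) and 4 were lower (18.7%). In GSC, 16 were higher (24%) and 15 were lower (20.6%). At 2-fold or more the counts were 7 higher and 3 lower in iPSC (26.3% of all genes), 7 and 2 in gPSC (23.3%), and 12 and 5 in GSC (31.7%). The share of members called was 33.8% in iPSC against 39.9% of all genes, 31% against 36% in gPSC, and 43.7% against 44.6% in GSC. These 3 comparisons share the single fibroblast line.

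Mrps12, a protein of the decoding centre, had levels of 10.30, 10.34, 10.16 and 10.28 in iPSC, 10.24, 10.46, 10.14 and 10.35 in gPSC, 10.82 and 10.70 in GSC, 10.43 in Fib-iPSC and 10.05 in ESC, against 8.45 in fibroblasts. Mrps5, which lines the messenger RNA entry side, had levels of 9.20, 9.41, 8.84 and 8.98 in iPSC, 9.53, 9.57, 9.29 and 9.47 in gPSC, 10.11 and 9.95 in GSC, 9.56 in Fib-iPSC and 9.53 in ESC, against 7.68 in fibroblasts. In both genes the fibroblasts were more than 1 log2 unit below every other line, and GSC 1 was the highest. Mrps12 was higher by 1.82 ± 0.15 in iPSC (3.52-fold, adjusted p = 3.49e-05), by 1.84 ± 0.15 in gPSC (adjusted p = 3.65e-05) and by 2.31 ± 0.17 in GSC (4.94-fold, adjusted p = 1.42e-05). Mrps5 was higher by 1.43 ± 0.21 in iPSC (adjusted p = 0.000798), by 1.79 ± 0.21 in gPSC (adjusted p = 0.000288) and by 2.35 ± 0.23 in GSC (5.12-fold, adjusted p = 7.04e-05). These 2 genes also had the widest range of all members over the 13 lines, 2.37 and 2.43.

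**Figure D3:**
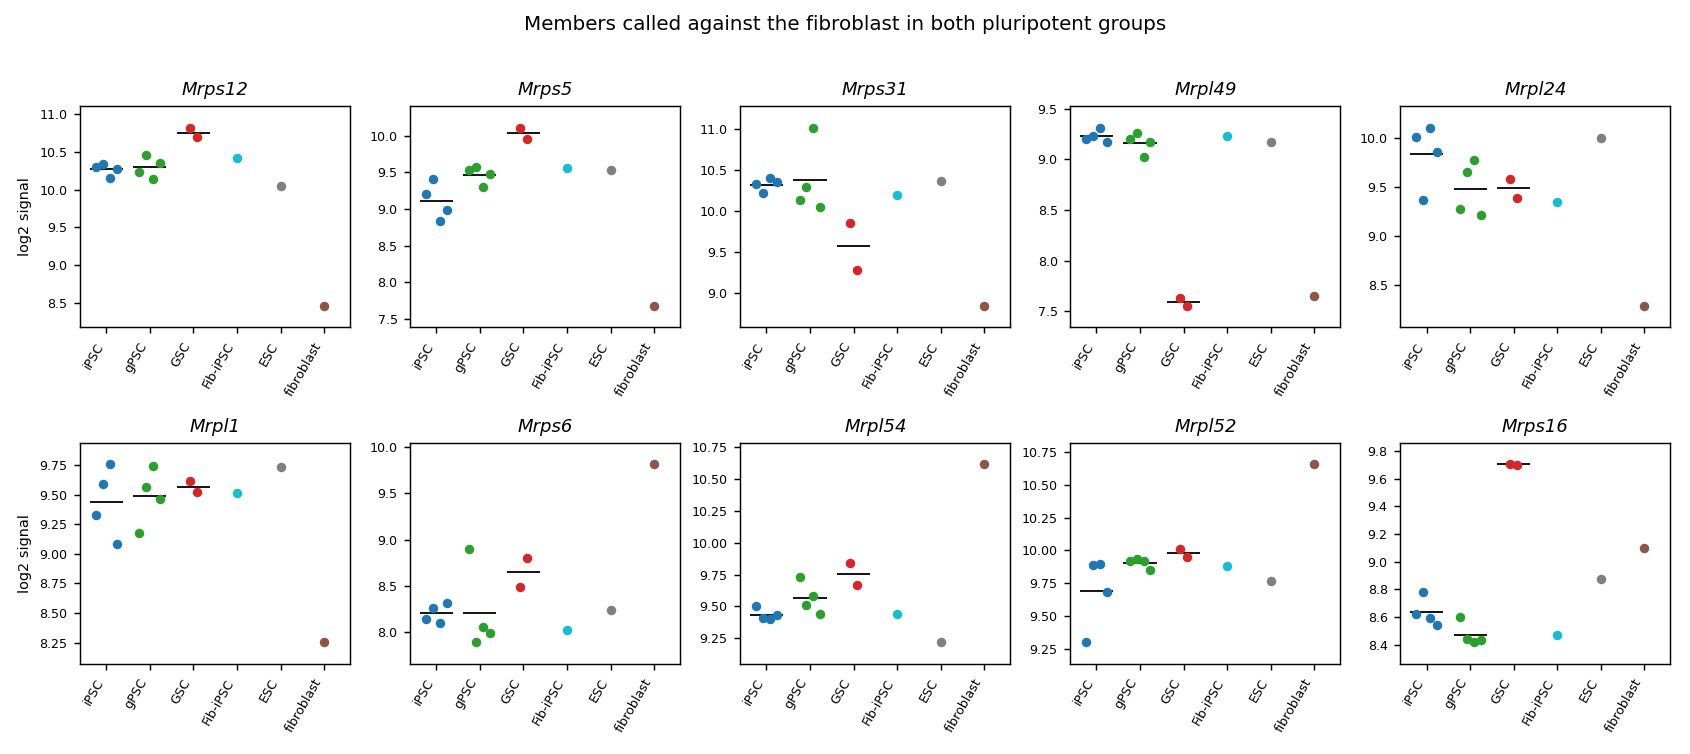
Log2 level (y axis) of members with the largest differences against fibroblasts in each of the 13 lines (points, means of 2 arrays, grouped as iPSC, gPSC, GSC, Fib-iPSC, ESC and fibroblast; bars are group means). Mrps12 stands at 10.05 to 10.82 in the other 12 lines and at 8.45 in fibroblasts, and Mrps6 stands at 7.89 to 8.90 in those lines and at 9.81 in fibroblasts.

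Mrps31 had levels of 10.32, 10.22, 10.40 and 10.35 in iPSC, 10.14, 10.29, 11.02 and 10.05 in gPSC, and 9.86 and 9.28 in GSC, against 8.84 in fibroblasts. Mrpl24, whose bacterial counterpart starts the folding of the large-subunit RNA, had levels of 10.01, 9.37, 10.11 and 9.86 in iPSC, 9.28, 9.66, 9.78 and 9.22 in gPSC, and 9.58 and 9.39 in GSC, against 8.29 in fibroblasts. Mrpl1, a protein of the stalk beside the tRNA exit site, had levels of 9.33, 9.59, 9.76 and 9.08 in iPSC, 9.18, 9.56, 9.74 and 9.46 in gPSC, and 9.61 and 9.52 in GSC, against 8.25 in fibroblasts. The fibroblast line was the lowest of the 13 in all 3 genes. In iPSC over fibroblasts Mrpl24 was higher by 1.55 ± 0.30 (adjusted p = 0.00319), Mrps31 by 1.49 ± 0.34 (adjusted p = 0.00754) and Mrpl1 by 1.19 ± 0.27 (adjusted p = 0.00684). In gPSC the same genes were higher by 1.19 ± 0.30, 1.54 ± 0.34 and 1.24 ± 0.27 (adjusted p = 0.0126, 0.00701 and 0.00618). The dimmer probe of Mrpl1 gave -0.03 in iPSC and was not called, and with the mean of its probes Mrpl1 was called in none of the 3 comparisons with fibroblasts. By its brightest probe Mrpl49, described above, was higher by 1.58 ± 0.13 in iPSC (adjusted p = 3.63e-05) and by 1.51 ± 0.13 in gPSC (adjusted p = 5.03e-05). In GSC it differed by -0.06 (adjusted p = 0.798). Its 4 probes ran from 0.46 to 1.58 in iPSC, 0.53 to 1.51 in gPSC and -0.36 to 0.63 in GSC. They differed in call in each of these comparisons. Mrpl45 was not well above background in fibroblasts, so its rise is a bound, at least 1.47-fold in iPSC (adjusted p = 0.00788) and at least 1.34-fold in gPSC (adjusted p = 0.0192).

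Among members higher in fibroblasts, Mrps6 had levels of 8.15, 8.26, 8.10 and 8.31 in iPSC, 8.90, 7.89, 8.05 and 7.99 in gPSC, 8.49 and 8.81 in GSC, 8.02 in Fib-iPSC and 8.24 in ESC, against 9.81 in fibroblasts. Mrpl54 had levels of 9.50, 9.41, 9.40 and 9.43 in iPSC, 9.73, 9.51, 9.58 and 9.44 in gPSC, and 9.84 and 9.67 in GSC, against 10.62 in fibroblasts. For both genes the fibroblasts were the highest line. Mrps6 differed by -1.61 ± 0.33 in iPSC (3.05-fold lower, adjusted p = 0.00444), by -1.61 ± 0.33 in gPSC (adjusted p = 0.005) and by -1.17 ± 0.36 in GSC (adjusted p = 0.0262). The line gPSC 1, whose fibroblast marker mean was 9.10, was the highest gPSC line for Mrps6. Its Dcn and Lum were above fibroblasts, as in most other lines, and the other 5 of the 7 markers were below. The part of the marker genes' cells in its Mrps6 value was not tested. Mrpl54 differed by -1.18 ± 0.14 in iPSC (adjusted p = 0.000299), by -1.05 ± 0.14 in gPSC (adjusted p = 0.000599) and by -0.87 ± 0.16 in GSC (adjusted p = 0.00202). Mrpl52 differed by -0.97 ± 0.21 in iPSC (adjusted p = 0.00612) and by -0.75 ± 0.21 in gPSC (adjusted p = 0.0211). Mrpl20, whose bacterial counterpart acts early in large-subunit assembly, differed by -1.37 ± 0.40 in iPSC (adjusted p = 0.0215) and was highest in fibroblasts of all lines. The dim member Mrpl15 differed by -0.86 ± 0.29 in iPSC (adjusted p = 0.0401) and by -1.06 ± 0.31 in GSC (adjusted p = 0.022), and it was detected on 5 of 8 iPSC arrays and 1 of 4 GSC arrays. Its GSC mean of 4.51 lay below the lowest detected signal of each GSC array (4.57 to 4.66), so the size of the GSC difference is not a measured one.

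Mrps16 was the member called in opposite directions against fibroblasts, by 0.60 ± 0.15 in GSC (adjusted p = 0.00983), by -0.46 ± 0.14 in iPSC (adjusted p = 0.0244) and by -0.63 ± 0.14 in gPSC (adjusted p = 0.00678). The iPSC call was lost in the authors' table and with the second array of each line alone. Mrpl17 went the other way, at -0.66 ± 0.19 in GSC (adjusted p = 0.0201) and 0.52 ± 0.18 in iPSC (adjusted p = 0.0417). The largest falls in GSC were those of Mrps15 (-1.47 ± 0.30, adjusted p = 0.00363), Mrpl27 (-1.39 ± 0.35, adjusted p = 0.0107) and Mrps28 (-1.30 ± 0.19, adjusted p = 0.000645). Further rises in GSC were those of Mrpl38 (1.57 ± 0.25, adjusted p = 0.000986), Mrpl4 (1.35 ± 0.25, adjusted p = 0.00204) and Mrpl55 (1.33 ± 0.37, adjusted p = 0.0171). Without GSC 1, which left 1 line in that group, the calls of Mrps6 and Mrpl55 in GSC over fibroblasts were lost. Fewer members and fewer of all genes tested were called then.

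Fib-iPSC and fibroblasts are 1 line each and were compared without a test. At 2-fold or more, 9 members were higher and 2 were lower in Fib-iPSC than in fibroblasts, where 30.5% of all genes passed that size. The members higher were Mrps12 (10.43 against 8.45), Mrps5 (9.56 against 7.68), Mrpl49 (9.23 against 7.65), Mrps31 (10.20 against 8.84), Mrpl2 (9.87 against 8.61), Mrpl1 (9.51 against 8.25), Mrpl11 (9.11 against 7.91), Mrpl24 (9.35 against 8.29) and Mrpl55 (7.84 against 6.83). Mrps6 (8.02 against 9.81) and Mrpl54 (9.44 against 10.62) were lower. Between Fib-iPSC and ESC, Mrpl35 reached 2-fold, at 5.99 against 4.75 (5.06% of all genes reached it by their measured values). Its ESC level lay near the lowest detected signals of the ESC arrays. Mrpl15 stood at 5.40 against 4.39, but it was not well above background in ESC, so its difference is a bound, at least 1.72-fold.

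**Figure D4:**
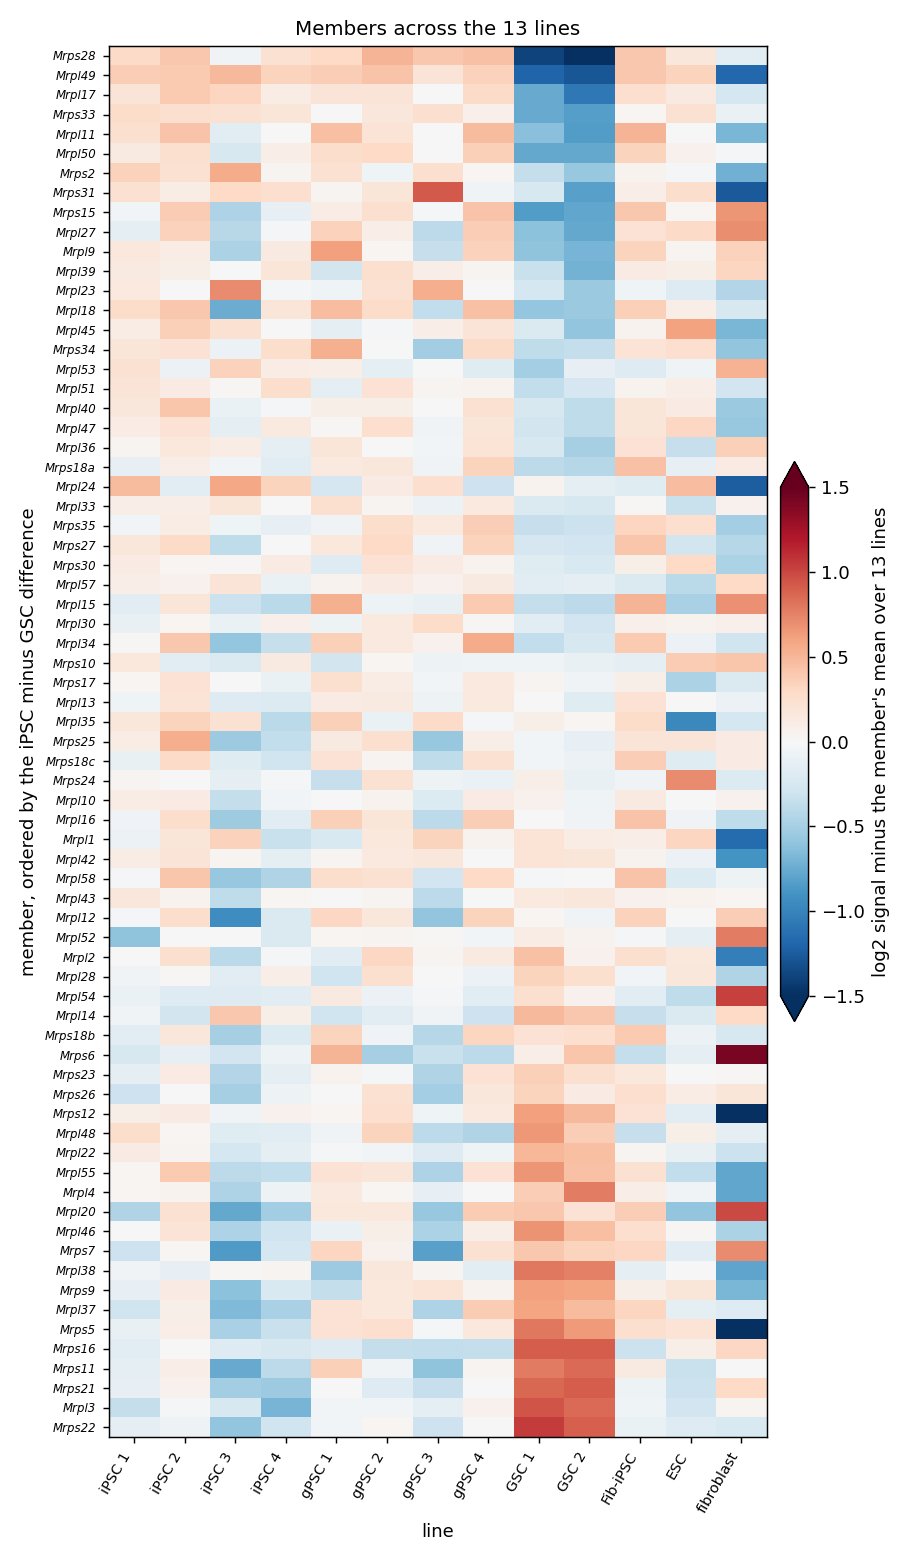
Level of each of the 71 members (rows) in each line (columns, grouped as iPSC, gPSC, GSC, Fib-iPSC, ESC and fibroblast) as the log2 deviation from that member's mean over the lines. The median range of a member over the 13 lines was 1.14 log2 units, from 0.42 for Mrpl13 to 2.43 for Mrps5.

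The members varied less over the 13 lines than the typical gene, with a median range of 1.14 log2 units against 1.38 for all genes tested. Over the 10 pluripotent lines the medians were 0.71 and 0.76. Mrps31 (2.18), Mrps28 (2.05) and Mrps6 (1.93) followed Mrps5 and Mrps12 in range. The steadiest members were Mrpl13 (0.42), Mrpl10 (0.49), Mrpl43 (0.57), Mrpl30 (0.57) and Mrpl33 (0.58), all of the large subunit. These are ranges of the brightest probe, and in Mrpl13 its lowest line was at 10.56 and its highest at 10.98. The other detected probe was called in GSC over fibroblasts for Mrpl13 (-0.96), Mrpl10 (0.97) and Mrpl33 (-0.69), where the brightest was not, so these 3 genes were not steady by both probes.

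Within the pluripotent groups the members moved together by line. Line iPSC 3 was the lowest of the 4 iPSC lines for 43 of the 71 members (60.6%, against 33.4% of all genes), and gPSC 3 was the lowest gPSC line for 43 (60.6%, against 31.3%). Line iPSC 2 was the highest iPSC line for 44 members (62%, against 31.5%). From the mean of the 10 pluripotent lines, the median member deviated by -0.20 in iPSC 3, -0.12 in gPSC 3 and -0.10 in iPSC 4, by 0.10 in iPSC 2 and by 0.11 in gPSC 4 and Fib-iPSC. The lines iPSC 3 and gPSC 3 are also those with the highest germline marker means among the pluripotent lines, 6.53 and 6.19, and fibroblast marker means of 4.91 and 5.67. Dazl (10.80 and 9.94) and Ddx4 (6.47 and 5.92) were highest in these lines among the pluripotent ones. Ret (4.32 in both) and Gfra1 (4.58 in gPSC 3) were in both lines within the range of the other pluripotent lines, Sohlh1 was 5.97 in iPSC 3 but 4.89 in gPSC 3, against 5.15 in gPSC 2, and Etv5 was higher in all 10 pluripotent lines than in GSC. The part of these in the members' levels was not tested. Leaving out single lines moved the count in iPSC over GSC most for the GSC lines, where 1 line of that group remained. Fewer of all genes tested were called there too.

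**Figure D5:**
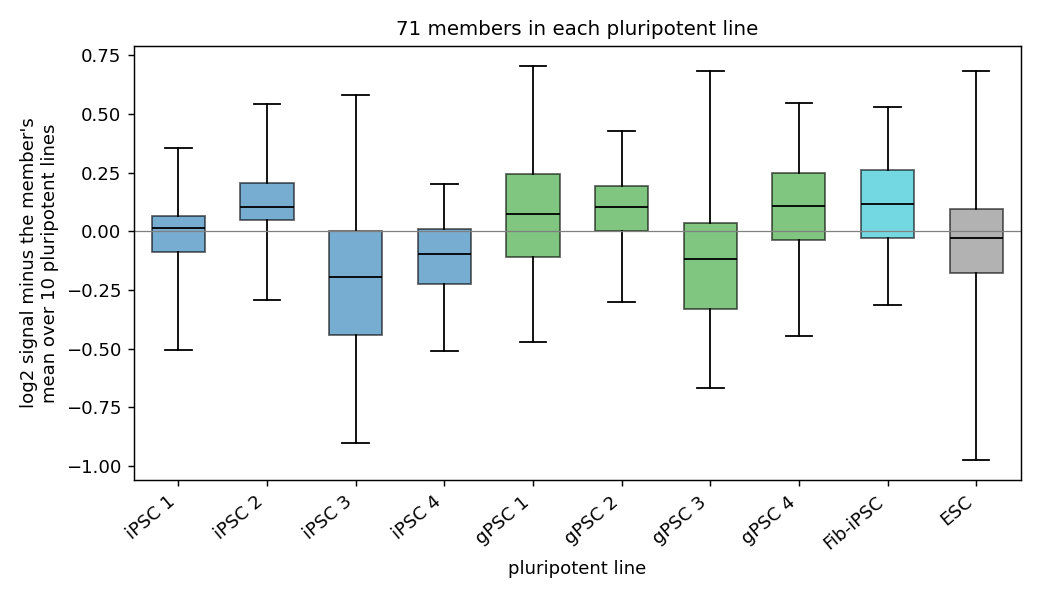
Log2 deviation of the 71 members from their mean over the 10 pluripotent lines (y axis), by line (x axis; iPSC, gPSC, Fib-iPSC and ESC), with the median (line), the quartiles (box) and the lowest and highest member (whiskers). The median member lies at -0.20 in iPSC 3 and -0.12 in gPSC 3, and between -0.10 and 0.11 in the other 8 lines.

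Genes that work with the mitochondrial ribosome were read from lists of related functions. In iPSC over GSC, 19.5% of all genes tested were higher and 24.6% were lower, together 44.2%. The share called either way was 55% of assembly factors, 29.4% of translation factors and 35.7% of synthetases. Of 4 mitoribosomal proteins with other symbols, 1 was higher in iPSC over GSC: Chchd1, a small-subunit protein (1.16 ± 0.12, adjusted p = 6.11e-05). Of 20 assembly factors, 5 were higher and 6 lower, among them the RNA methyltransferases Mrm1 (1.83 ± 0.27, adjusted p = 0.000534) and Mrm3 (-1.71 ± 0.28, adjusted p = 0.000952), the small-subunit maturation factor Rbfa (-1.57 ± 0.34, adjusted p = 0.00488) and Nsun4 (-1.35 ± 0.35, adjusted p = 0.0123). Mrm1 and Mrm3, which modify large-subunit RNA, were thus far apart. Of 17 translation factors, 1 was higher and 4 were lower, with the elongation factor gene Gfm1 at 1.39 ± 0.15 (adjusted p = 7.53e-05), the release factor gene Mtrf1l at -1.18 ± 0.14 (adjusted p = 0.000158) and the elongation factor gene Tufm at -1.01 ± 0.22 (adjusted p = 0.005). Of 14 aminoacyl-tRNA synthetase genes, 0 were higher and 5 lower, with Iars2 at -0.79 ± 0.20 (adjusted p = 0.0102).

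Of 16 genes of mitochondrial DNA maintenance and transcription, 2 were higher and 7 lower in iPSC over GSC, among them the topoisomerase gene Top1mt (-1.08 ± 0.29, adjusted p = 0.0138) and the polymerase gene Polg (-0.95 ± 0.26, adjusted p = 0.015). Of 9 regulators of mitochondrial biogenesis, the coactivator gene Ppargc1b (1.20 ± 0.29, adjusted p = 0.00884) and the nuclear receptor gene Esrra (0.65 ± 0.12, adjusted p = 0.00179) were higher and 0 were lower. The cytoplasmic ribosomal protein genes had 20 higher and 1 lower of 61, and genes of the respiratory chain and ATP synthase 24 higher and 21 lower of 77. Against 44.2% of all genes, the share called was 34.4% and 58.4% in these 2 lists. It was 56.2% for DNA maintenance and transcription and 22.2% for biogenesis regulators. In gPSC over GSC the counts of higher and lower genes were 5 and 4 for assembly factors, 2 and 5 for translation factors, 1 and 3 for synthetases, 3 and 8 for DNA maintenance and transcription, and 3 and 0 for biogenesis regulators. Of all genes tested, 17.9% were higher and 24.4% were lower in gPSC over GSC. No difference between these lists and the members was tested.

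The promoter windows, from 250 bases before to 50 after each start, were compared as descriptions with those of the 8630 tested genes in the table. The ETS letters CCGGAAG were present in 25 of 67 members (37.3%), against 17% of tested genes and 9.12% of all 27025 genes in the table. The YY1 letters AAGATGG were present in 19.4% of members, against 7.27% of tested genes, and the NRF1 letters GCATGCGC in 11.9%, against 5.17%. At least 1 of these 3 motifs was in 37 members (55.2%), against 26.6% of tested genes. The Sp1 letters GGGCGG (50.7% against 63.1%), CCAAT (38.8% against 39%), the E-box CACGTG (7.46% against 10.1%) and TATAAA (5.97% against 8.11%) were not more frequent in members. The ETS letters were found in 5 of 16 members higher in iPSC than in GSC, 6 of 11 members lower and 13 of 36 members not called. All motifs were searched on both strands, and Sp1, E-box and TATA matches are not in capitals in the stretches above.

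A start in the opposite direction within 500 bases was found for 23 of the 67 members (34.3%), against 15.6% of tested genes and 10.1% of all genes in the table. In 15 such pairs both genes were tested, and in iPSC over GSC both genes were called in the same direction in 5 pairs and in opposite directions in 1. Of all single genes tested, 44.2% were called in iPSC over GSC. No share was worked out for pairs of all genes, so the pair counts have no background beside them. Mrpl46 and Mrps11, both mitoribosomal and 42 bases apart, differed by -0.69 ± 0.22 (adjusted p = 0.0287) and -1.11 ± 0.28. Mrps12 and Sars2, 147 bases apart, differed by -0.49 ± 0.12 (adjusted p = 0.00763) and -0.57 ± 0.15 (adjusted p = 0.0136). The same pair was higher in GSC than in fibroblasts by 2.31 and 1.34 ± 0.22 (adjusted p = 0.00106). Mrpl49 and Fau, 192 bases apart, were higher by 1.64 and 0.65 ± 0.15 (adjusted p = 0.00689), and Mrpl47 and Ndufb5, which encodes a complex I subunit, were higher by 0.42 ± 0.13 (adjusted p = 0.0307) and 1.10 ± 0.18 (adjusted p = 0.000938). Mrpl50 and Zfp189 were the opposite pair, at 0.83 and -0.83 ± 0.12 (adjusted p = 0.000517). In gPSC over GSC the counts were 2 and 1 of 15, in iPSC over fibroblasts 4 and 0, and in GSC over fibroblasts 2 and 2.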

How the data were processed

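Total RNA of 13 cell lines was hybridised to 26 Illumina BeadChip arrays, 2 for each line. The deposited table gives for each array an intensity per probe, not normalized, and a detection p-value, per the file headers. A second table by the authors holds log2 values that were quantile normalized (sorted values differ by at most 0.00106). BeadStudio 3.2 and lumi are listed in the submitters' processing notes, with no roles.

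Intensities were corrected and normalized by limma's neqc (limma 3.58.1, R 4.3.3, offset 16), which uses the detection p-values, and both arrays of a line were averaged. A probe counted as detected where its detection p was under 0.05 on the 2 arrays of any line, and each gene was read from its brightest such probe. This left 10660 genes. A model with 1 mean per group over 13 lines (7 residual degrees of freedom) gave 9 tested comparisons, with limma's moderated test and Benjamini-Hochberg adjustment over all genes. Levels are not compared between genes. For arrays, the number of lines limits the precision.

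In each comparison up to 6 called members in each direction, by size, were named, with the 5 of largest and 5 of smallest range, members not detected or with discordant probes, a fixed set (Mrpl12, Mrpl3, Mrpl44, Mrpl41, Mrpl18, Mrps12, Mrps16, Mrps22, Mrps18a, Mrps18b, Mrps18c and Mrps36), and up to 4 called genes of each other list. Mrpl44 and Mrpl41 were not analysed here. The members and lists were chosen with earlier results of these data known. Alternatives were other normalizations, probe rules, filters, single arrays, the authors' table, a replicate block and leaving out each iPSC, gPSC or GSC line. The fit was tested on simulated data.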

Additional observations from a re-analysis of the deposited data

Results flagged for a closer look

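A line that stood far from the other 3 of its group was looked for in 33 named members, in the iPSC and gPSC groups (66 groups of 4 lines), and 3 were found, where chance gives about 1 in 20. Mrps6 stood at 8.90 in gPSC 1, where the nearest of the other gPSC lines was at 8.05 and the lowest at 7.89. The fibroblast marker mean of gPSC 1 was 9.10 and the level of Mrps6 in fibroblasts was 9.81. In gPSC 1 the markers Dcn and Lum were above fibroblasts (11.68 and 11.21 against 7.30 and 5.21), as in most other lines. The other 5 markers were below fibroblasts in gPSC 1. The part of the marker genes' cells was not tested. Mrps16 stood at 8.60 in gPSC 1, with the other gPSC lines at 8.42 to 8.44. Mrpl55 stood at 7.14 in gPSC 3, with the other gPSC lines at 7.79 to 7.83.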

How the results depend on the processing

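No member was called between iPSC and gPSC, or in either against ESC, under any alternative run. Leaving out each of the 10 iPSC, gPSC and GSC lines in turn gave 14 to 40 members called in iPSC over GSC (31 with all lines), 14 to 34 in gPSC over GSC (32), 9 to 21 in GSC over ESC (18), 19 to 26 in iPSC (24) and in gPSC (22) over fibroblasts, and 19 to 33 in GSC over fibroblasts (31). The lowest of the first 3 counts came without a GSC line, which left 1 line in that group. Fewer of all genes tested were called then too, so the fall was not particular to the members. With 2-fold also required, 9, 7, 9, 10, 9 and 17 members passed in the same 6 comparisons. The authors' table gave 25, 28, 12, 20, 19 and 28. Array b alone gave 8 higher and 14 lower in iPSC over GSC, in place of 17 and 14, and 4365 of all genes called, in place of 4708. No called member changed direction under other normalizations, probe rules or filters. With line number as a replicate block, 29 members were called in iPSC over GSC, 27 in gPSC over GSC and 0 between iPSC and gPSC. The labels do not say whether lines of the same number are paired. Deviations of same-numbered iPSC and gPSC lines correlated at -0.07, -0.07, 0.68 and -0.07. Those of differently numbered lines correlated at -0.70 to 0.68. Deviations from a group's own mean depend on each other, so these values cannot settle whether the lines are paired. Differences near 0 turned sign in iPSC over GSC: Mrpl12 to 0.0527 under the block, with -0.3779 to 0.0229 when a line was left out, and Mrps18c to 0.1232 under the block, with -0.1306 to 0.0655. For Mrpl35 in GSC over ESC, quantile normalization of uncorrected intensities gave 0.35 (adjusted p = 0.0753), and the mean of its probes gave Mrpl49 -0.46 there, no longer called. The 4 detected probes of Mrpl49 ran from -1.58 to 0.34 in this comparison, and why they differ was not tested. The cause of the Mrpl35 change was not tested either. Mrpl1 lost its calls against fibroblasts with the mean of its probes. The block, chosen with the other alternatives, and the fit without it over the same 10 lines, added after seeing the data, used iPSC, gPSC and GSC lines. The lone ESC, Fib-iPSC and fibroblast lines, and dim probes such as Mrpl15, Mrpl35, Mrpl45 and Mrpl57, limit what can be read.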
